A study of Mus musculus with 12 samples.

Results

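The titles of the embryos begin with a number, and 8 of the 12 whole mouse embryos of the study carry the numbers 18 or 4. The 4 embryos of number 18 were compared with the 4 of number 4, chosen by the start of their column names, and the embryo of number 4.1b was kept apart. Each set held 2 wild-type embryos, 1 heterozygous and 1 knockout embryo for a disrupted allele of Mfsd12, a gene for a membrane protein of lysosomes and melanosomes. All embryos came from timed matings between heterozygous breeders and were taken between 10.0 and 11.0 days after fertilization, with no other treatment named in the labels. The labels say that development was staged computationally but give no stage for any embryo, and the meaning of the title number is not given in the sources used here. Embryos are named below by title number, embryo number and genotype, namely 18-2 WT, 18-5 WT, 18-3 HET and 18-4 KO, and 4-1 WT, 4-3 WT, 4-4 HET and 4-5 KO. Strings of 4 values follow that order. Because HET and KO rest on 1 embryo per number, the wild-type pair is the only genotype with a repeat within a number.

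In this window of mouse development the neural tube gives rise to its first large waves of neurons, the somites form cartilage and muscle precursors, and the liver bud becomes a site of blood formation. The surface ectoderm becomes a layered skin, and tissue macrophages spread from the yolk sac. RNA-binding proteins of the Lin28 family mark early embryos and block the maturation of let-7 microRNAs, and they decline as tissues differentiate.

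Genes were tested in 1 model with title number and genotype as terms, by the quasi-likelihood test of edgeR with Benjamini-Hochberg adjustment, and a gene is said to have risen or fallen in number 18 where its adjusted p was under 0.05. Levels are in CPM, counts scaled to a common library total, and differences are log2 values of number 18 minus number 4. Of 19983 genes tested, 1018 (5.09%) rose and 689 (3.45%) fell in number 18, of which 570 and 171 changed at least 2-fold. All 4 number 18 embryos lay above all 4 number 4 embryos for 10.2% of genes and below them for 10.5%. These shares of all genes are the background for every list count below. An unadjusted p under 0.05 was reached by 5993 genes (30%). Scaling by library totals alone, without TMM factors, gave 803 higher and 307 lower, so 72.3% of called genes were higher in place of 59.6%. Leaving out 18-4 KO raised the counts to 2125 and 1907, and leaving out 4-5 KO to 2048 and 1946, where the other knockout no longer bears on the difference because it alone carries its genotype term. They dropped to between 150 and 283 higher and between 35 and 101 lower when 18-2 WT, 18-3 HET, 4-1 WT, 4-3 WT or 4-4 HET was left out, the lowest without 4-1 WT, and were 859 and 675 without 18-5 WT. No gene called with all 8 embryos changed its direction in these fits. Both fits that leave out a knockout thus compare the wild-type and heterozygous embryos alone and are not separate checks. Where their counts are the same, they are given together as without either knockout.

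Library totals ranged from 54633257 to 66715587 counts. The first principal component held 42.0% of the variance and ran from 13.3 to 67.7 in number 18 and from -66.3 to -15.4 in number 4, with 18-4 KO and 4-4 HET nearest to the other set. Mfsd12 stood at 16.4, 12.9, 8.96 and 3.60 CPM in number 18 embryos and at 9.59, 9.73, 6.0 and 2.80 CPM in number 4 embryos. It was lowest in the knockout of each number and did not pass the test between numbers (log2 difference 0.54 ± 0.15 SE, adjusted p = 0.0551). Xist exceeded 100 CPM in 2 of 4 number 18 and 1 of 4 number 4 embryos. With Xist as a further term, 223 genes rose and 46 fell.

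The wild-type pairs alone gave a second view, because their calls could be read in heterozygous and knockout embryos that took no part in them. Among 1396 genes higher in the number 18 wild-type pair, 96.3% were higher in the heterozygous and 73.4% in the knockout number 18 embryo, against 50.8% and 52.3% of all genes. Among 1285 genes lower in that pair, 98.1% and 63.6% were lower, against 49.2% and 47.7% of all genes. The Spearman correlation across 15618 genes was 0.69 between the wild-type and heterozygous differences and 0.20 between wild-type and knockout, a description over genes that share depth and libraries. A term for number by genotype set the wild-type difference against that of heterozygous and knockout embryos pooled. By edgeR it was called for 0 of 19983 genes (0%; smallest adjusted p = 0.579, 1551 genes at an unadjusted p under 0.05). It was called for 0 genes by limma voom and for 8 by DESeq2. A difference of the knockout embryos alone was not tested.

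The difference also moved with gene length. Over 12135 genes of at least 5 CPM, the Spearman correlation of the log2 difference with the length counted for the gene was -0.48. Of the 2428 shortest of these genes, up to 2054 bases, 189 rose and 27 fell, with a median difference of 0.27. Of the 2428 longest, from 7288 bases, 27 rose and 220 fell, with a median of -0.25. The short genes stood above the long ones by 0.85 (log2) in 18-5 WT, which was the embryo farthest from the rest, by 0.16 in 18-2 WT and 0.21 in 18-3 HET, while in 18-4 KO the difference was -0.19. In number 4 embryos it was -0.34, -0.53, -0.15 and -0.03, so the sets overlapped (exact two-sided permutation p = 0.0857, 0.143 after adjustment over 5 library measures; the smallest p possible was 0.0286). A fit with an offset for gene length in each embryo called 1388 genes higher and 1203 lower, of which 919 and 610 were called without it. The part of gene length in the differences was not tested, so each group of genes below is given with this offset where it moved its count by over 1.5 times and by at least 2 genes.

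**Figure D1:**
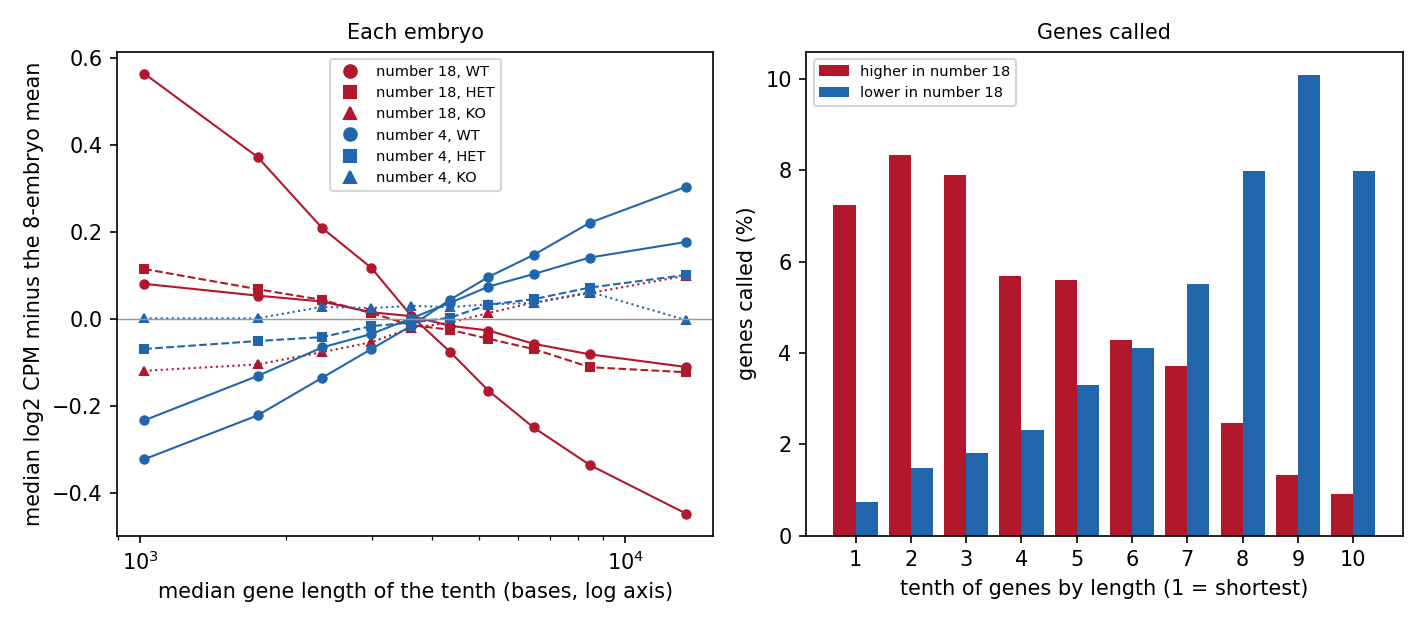
Left, the median log2 CPM of genes in 10 bins of length, relative to the mean of the 8 embryos, against the median length of each bin (bases, log axis), with 1 line per embryo. Right, the percentage of genes in each bin that rose or fell in number 18; 18-5 WT has the steepest line, and rises are most frequent among short and falls among long genes.

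Genes of the early embryo marked the clearest fall. Lin28a, an RNA-binding protein that blocks let-7 maturation, was at 8.89, 6.58, 7.63 and 27.0 CPM in number 18 embryos and at 62.8, 54.1, 43.4 and 261 CPM in number 4 embryos. The sets did not overlap, and within each number the knockout held the highest level. Lin28a (chromosome 4, 133730641 to 133746504, minus strand, GRCm39) fell 7.49-fold (log2 difference -2.91 ± 0.17 SE, adjusted p = 0.000441), from 105 ± 104 to 12.5 ± 9.70 CPM (SD, n = 4). Its paralogue Lin28b fell from 91.3, 99.1, 73.5 and 158 CPM to 22.0, 15.9, 21.9 and 50.01 CPM (-2.02 ± 0.17, adjusted p = 0.00165).

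Trim71, a ubiquitin ligase and RNA-binding protein of early embryos that is a classic let-7 target, stood at 3.56, 1.59, 2.74 and 9.78 CPM against 18.01, 19.1, 10.6 and 33.4 CPM. Sall4, a zinc finger factor of pluripotent and early cells, stood at 8.04, 5.51, 10.8 and 18.02 CPM against 39.7, 30.04, 25.8 and 72.1 CPM. Both fell without overlap, by 2.34 and 2.0 on the log2 scale. Igf2bp1, an mRNA-binding protein of fetal tissues, fell less, by 0.77 (adjusted p = 0.0309). Hmga2, a chromatin protein and another let-7 target, had a difference of -0.37 and did not pass (adjusted p = 0.180), with 714, 439, 645 and 692 CPM against 754, 815, 720 and 921 CPM. Of 18 measured genes of the Lin28 and early-stage list, 9 fell, 0 rose and 9 did not pass, with a median difference of -0.64 against 0.03 over all genes tested. With the length offset 10 fell.

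Outside that list, Igdcc3 and Prtg, related cell surface proteins of the immunoglobulin superfamily that are present in the early neural tube and mesoderm, had the next clearest falls. Igdcc3 was at 52.4, 34.4, 40.1 and 105 CPM in number 18 embryos and at 302, 293, 200 and 525 CPM in number 4 embryos (-2.55 ± 0.17, adjusted p = 0.000622). Prtg was at 8.35, 5.65, 7.63 and 23.2 CPM against 50.7, 48.8, 31.8 and 164 CPM (-2.64 ± 0.19, adjusted p = 0.000943). In both genes the number 18 knockout was the highest of its set and still under the lowest number 4 embryo. Zbtb16, a transcription factor of progenitor cells and limb patterning, fell by 2.33 and Nup210, a nuclear pore membrane protein, by 1.11, both without overlap. Wfikkn1, a secreted protease inhibitor domain protein that binds growth differentiation factors, fell by 3.18, and the level in 4-5 KO, 28.1 CPM, was far above the 2.92 to 4.94 CPM of the other number 4 embryos. Among the 15 genes with the largest falls were also Trh, the precursor of thyrotropin-releasing hormone, Miat, a long noncoding RNA, Rspo4, a Wnt signal enhancer, and Pax5, a factor of the midbrain-hindbrain boundary. They fell by 2.42, 1.86, 1.82 and 2.40. Miat was at 27.1, 17.7, 35.9 and 57.9 CPM in number 18 and at 161, 164, 109 and 57.9 CPM in number 4. The knockouts thus did not differ for Miat. Trh was at 0.680 to 0.785 CPM in number 18 and at 2.24, 2.23, 2.58 and 19.97 CPM in number 4, with 4-5 KO far above the others. Pax5 was at 1.31 to 1.68 CPM in number 18 and at 3.995, 8.30, 3.80 and 27.5 CPM in number 4. The knockout difference was the largest, and the other 3 number 4 embryos also lay above number 18.

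Since Lin28 proteins act on let-7, sequences of let-7 and of matches to its seed in some of these genes are shown here. RefSeq gives the mature microRNAs (GRCm38.p6). Capitals mark the seed, bases 2 to 8, and mature microRNAs were not measured in these libraries.
let-7a: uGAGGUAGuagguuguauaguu
let-7b: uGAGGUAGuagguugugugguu
let-7d: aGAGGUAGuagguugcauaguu
let-7e: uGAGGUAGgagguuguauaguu
let-7g: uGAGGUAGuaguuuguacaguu
miR-98: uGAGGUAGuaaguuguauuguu
let-7j: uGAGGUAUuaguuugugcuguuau
The first 6 share 1 seed, and let-7j, printed for contrast, does not. The 7-base match to that seed, CTACCTC on the transcript strand, was searched in the longest annotated 3′ UTR of each gene (GENCODE vM21, GRCm38), and 23-base windows from genes named above show it in capitals.
Lin28a, chr4:134005188-134005210, minus strand: cacagcctgttgaaCTACCTCat
Lin28a, chr4:134004550-134004572, minus strand: agatcgccacaaacCTACCTCac
Lin28b, chr10:45381021-45381043, minus strand: cccgggcgggaagtCTACCTCat
Trim71, chr9:114512471-114512493, minus strand: acattgcctaagtcCTACCTCag
Trim71, chr9:114512375-114512397, minus strand: gtgataatttctatCTACCTCaa
Igdcc3, chr9:65185708-65185730, plus strand: gtgactctcagcacCTACCTCag
Igdcc3, chr9:65185788-65185810, plus strand: gcccgaaagcactcCTACCTCaa
In these windows an A follows the match, the base that strengthens let-7 pairing sites in general. Other matches lack it, and an A follows 1 of 4 in Lin28b and Hmga2, 3 of 4 in Igf2bp1 and 1 of 2 in Prtg. It follows all matches in Lin28a, Trim71, Igdcc3 and Sall4. Lin28a held 2 matches, Lin28b, Trim71, Igf2bp1 and Hmga2 4 each, Igdcc3 and Prtg 2 each and Sall4 1. Hmga2, with 4 matches, was the one of these 8 genes that did not pass the test.

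Across genes with an annotated 3′ UTR, 109 of 576 genes that fell in number 18 held at least 1 let-7 match (18.9%), 60 of 903 that rose did (6.64%), and 1553 of all 15113 did (10.3%). Genes that fell had longer 3′ UTRs, with a median of 1756 bases against 870 for genes that rose and 1144 for all, so the share was also read within lengths. For 3′ UTRs of 4000 bases and over, 41.0% of 105 genes that fell held a match, against 30% of 1198 genes. For 2000 to 4000 bases the shares were 23.2% and 16.8%, for 1000 to 2000 bases 10.8% and 10.2%, and under 1000 bases 7.55% and 3.79%. Per 1000 bases of 3′ UTR, genes that fell held 0.108 let-7 matches and all genes 0.0730. The same search for the seed match of miR-125, another microRNA of developmental timing, gave 0.123 against 0.114, for the neural miR-9 0.115 against 0.0991, and for miR-17 0.0818 against 0.0999. By share of genes with at least 1 match, genes that fell also stood above all genes for these seeds. The shares were 21.4% against 15.2% for miR-125, 20.3% against 13.6% for miR-9 and 16.8% against 13.8% for miR-17. These were not read within 3′ UTR lengths. A match is a description of letters, not a site in use.

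**Figure D2:**
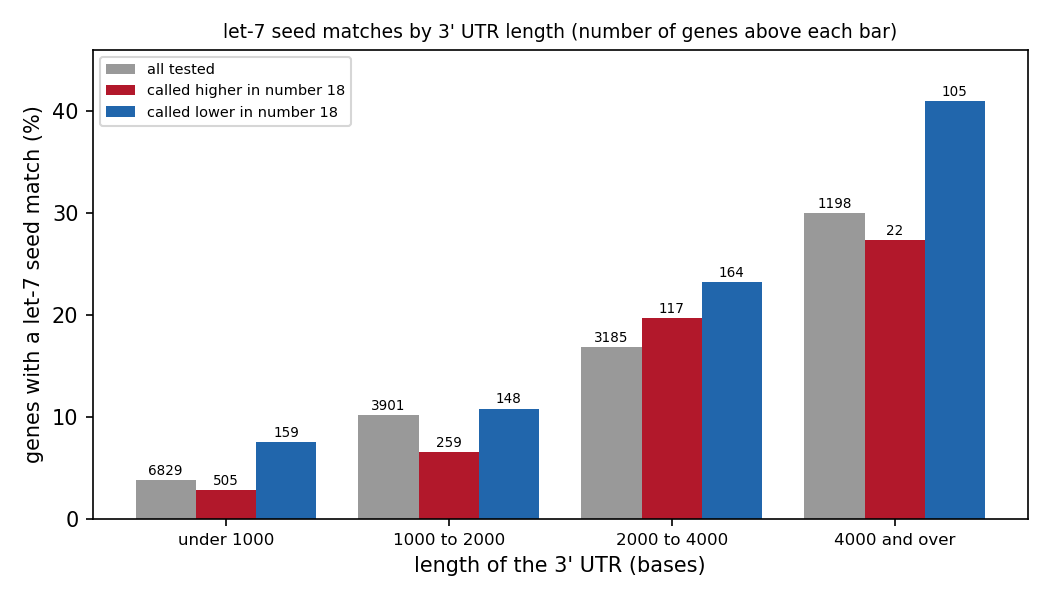
The percentage of genes with at least 1 let-7 seed match in the 3′ UTR, in 4 bins of 3′ UTR length (bases), for all genes tested and for those that rose or fell in number 18, with the number of genes above each bar. The share among genes that fell lies above that of all genes in each bin, by least (10.8% against 10.2%) at 1000 to 2000 bases.

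In the nervous system, more structural genes of neurons rose than fell in number 18, and more neural progenitor genes fell than rose. Of 45 genes of the neuronal cytoskeleton, axon and synapse, 13 rose, 0 fell and 32 did not pass, with a median difference of 0.49. All number 18 embryos lay above all number 4 embryos for 3 of the 45 and below for 1, against 10.2% and 10.5% of all genes. The summed level of the list overlapped, at 2174 to 3160 CPM in number 18 and 1475 to 3005 CPM in number 4. Stmn3, a microtubule regulator of neurons, was at 61.1, 64.1, 74.9 and 36.7 CPM against 19.02, 21, 34.1 and 7.43 CPM, without overlap (1.68 ± 0.18, adjusted p = 0.00474). Prph, the intermediate filament of peripheral and motor neurons, was at 5.05, 3.34, 5.46 and 5.28 CPM against 1.33, 1.97, 1.68 and 0.917 CPM. It rose 3.29-fold (1.72 ± 0.28, adjusted p = 0.0142). Rtn1, a reticulon of the neuronal endoplasmic reticulum, and Nsg2, an endosomal protein of neurons, rose by 0.94 and 0.81 with overlapping sets. Tubb3, neuronal tubulin, rose by 0.62 (adjusted p = 0.0242), also with overlapping sets, and missed the threshold with the length offset (adjusted p = 0.0547). Map1b, a microtubule protein of growing axons, had a difference of -0.68 and did not pass (adjusted p = 0.0935). It had the most negative difference of the 13 list members below 0, against 32 above, at 253, 172, 254 and 243 CPM against 331, 511, 428 and 239 CPM. Without 18-4 KO the list had 14 genes higher and 3 lower and a median of 0.235, and without 4-5 KO 0.227.

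Of 42 factors that drive neuron formation, 2 rose and 1 fell, at a median of -0.22, and 6 fell without either knockout. Neurod6, a factor of early forebrain neurons, had 61, 63, 178 and 14 counts in number 18 embryos and 2 counts in all number 4 embryos together, so its level there was near the limit of detection. Tbr1, a factor of early glutamatergic neurons of the cortex and olfactory system, was at 6.01, 4.24, 10.3 and 2.39 CPM against 1.76, 1.92, 3.06 and 0.0333 CPM. It rose 4.35-fold with overlapping sets (adjusted p = 0.0445). Neurod4, a factor of newly born neurons, fell by 1.16 (adjusted p = 0.0481).

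Of 44 neural progenitor and neural tube patterning genes, 12 fell and 0 rose, with a median of -0.51. The summed level of the 45 genes listed overlapped, at 961 to 1186 CPM in number 18 and 1004 to 1354 CPM in number 4. Sox1, a marker of neural stem cells, was at 5.41, 4.34, 8.65 and 8.76 CPM against 16.4, 15.2, 14.1 and 16.4 CPM (-1.24 ± 0.21, adjusted p = 0.0156). Pax3, a factor of the dorsal neural tube and of muscle progenitors, was at 14.8, 13.98, 17.9 and 21.02 CPM against 31.9, 36.9, 30.7 and 31.8 CPM (-0.97 ± 0.15, adjusted p = 0.0127). Number 4 embryos lay within a narrow range for both genes and all number 18 embryos lay below it. Otx2, a factor of forebrain and midbrain, fell by 0.85, Shh, the ligand of the floor plate and notochord, by 0.87, Sox2 by 0.71 and Pax6 by 0.60. With the length offset 16 of the 44 fell. Without 18-5 WT 5 did.

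Peripheral nerve and crest genes were mixed, with 3 of 26 higher (5 with the length offset) and 1 lower at a median of 0.11. Gfra3, the artemin receptor of sympathetic and sensory neurons, rose by 1.02 and Ntrk2, a neurotrophin receptor, by 0.60. Eya1, a placode and crest cofactor, fell by 0.93 with overlapping sets. Of 21 ear, olfactory and pituitary placode genes 1 rose and 2 fell. Oc90, the main protein of otoconia in the inner ear, was at 18.5, 17.8, 15.04 and 11.3 CPM against 4.01, 5.63, 7.25 and 2.42 CPM (1.77 ± 0.22, adjusted p = 0.00613). In lens and retina 3 of 18 genes rose and 3 fell, and 0 fell without 18-5 WT. Cryaa, a lens crystallin, had 112, 137, 150 and 15 counts against 2, 14, 12 and 0. Its fellow crystallins Cryba4 and Crybb1 also rose, from at most 0.206 CPM in number 4 embryos, with the knockout lowest in number 18 for all 3 genes. Six6, an optic vesicle factor, fell by 1.08.

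**Figure D3:**
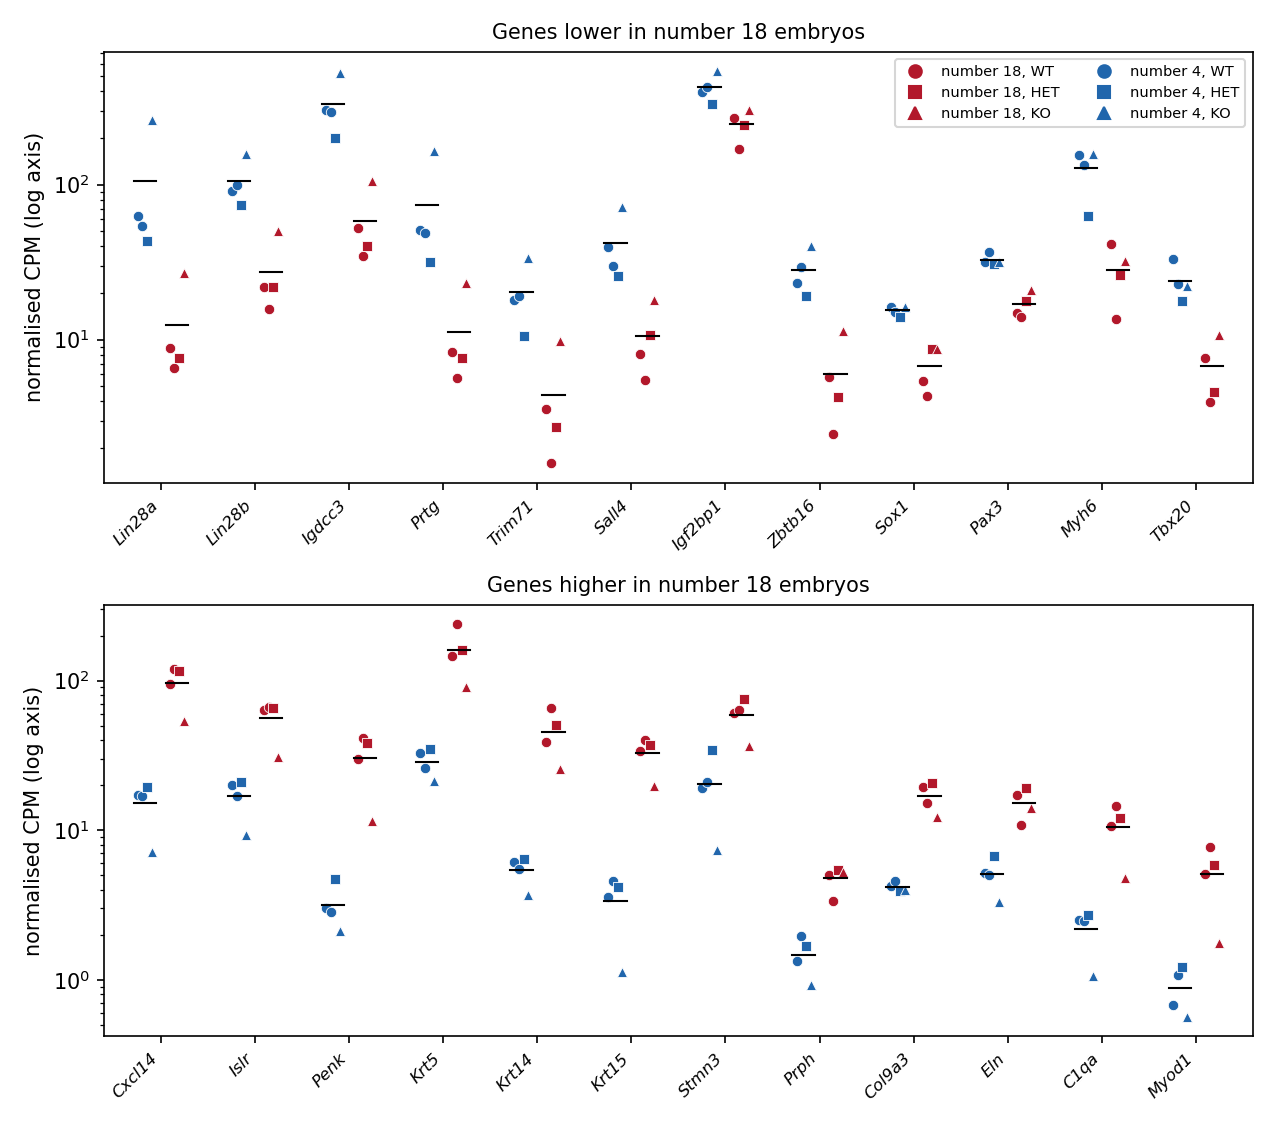
Normalised level (CPM, log axis) of 12 genes that fell and 12 that rose in number 18, with 1 symbol per embryo (colour for title number, shape for genotype) and a bar at the mean of each set of 4. In the upper panel 18-4 KO is often the highest of number 18, as at 27.0 CPM for Lin28a, and in the lower panel often the lowest, as at 53.8 CPM for Cxcl14.

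Keratins of the basal epidermis gave some of the largest rises. Krt5, a keratin of basal epidermal cells, was at 147, 238, 161 and 91.0 CPM in number 18 embryos and at 32.7, 26.1, 34.8 and 21.4 CPM in number 4 embryos. Its partner Krt14 was at 38.9, 65.6, 50.6 and 25.8 CPM against 6.18, 5.52, 6.40 and 3.67 CPM. Each number 18 embryo exceeded each number 4 embryo for both genes, and they rose 5.39-fold and 8.17-fold (2.43 ± 0.20, adjusted p = 0.00141, and 3.03 ± 0.19, adjusted p = 0.000514). Krt15, at 33.8, 40.0, 37.4 and 19.8 CPM against 3.57, 4.60, 4.14 and 1.13 CPM, rose 10.5-fold, and Krt17, at 6.78, 12.6, 8.53 and 3.71 CPM against 0.462, 0.523, 0.894 and 0.367 CPM, rose 13.9-fold. Of 28 skin and simple epithelium genes, 11 rose, 0 fell and 17 did not pass, at a median of 0.43. Perp, a desmosome protein, moved least among those named, at 41.0 to 42.9 CPM against 25.9 to 31.2 CPM (0.60, adjusted p = 0.0228), and missed the threshold with the length offset (adjusted p = 0.0514).

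The gene with the smallest p among those that rose, apart from Apoa4, was Cxcl14, a chemokine of skin and mesenchyme on chromosome 13 (56436456 to 56444624, minus strand, GRCm39). It was at 95.1, 119, 116 and 53.8 CPM against 17.1, 16.9, 19.4 and 7.15 CPM (2.70 ± 0.13, adjusted p = 0.000123), with differences of 2.61, 2.54 and 2.83 in WT, HET and KO. Islr, a secreted leucine-rich protein of mesenchymal cells, was at 63.7, 66.4, 65.5 and 30.9 CPM against 19.9, 16.9, 21.1 and 9.32 CPM (1.75 ± 0.12). Penk, the enkephalin precursor, which embryonic mesenchyme also expresses, was at 29.95, 41.5, 38.1 and 11.5 CPM against 3.02, 2.83, 4.73 and 2.13 CPM (3.17 ± 0.24). The knockout was lowest of its set for Cxcl14, Islr and Penk in both numbers. Kcne4, a potassium channel subunit, rose by 3.14 and was at 2.73 to 6.91 CPM against 0.0667 to 0.928 CPM.

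More cartilage and matrix genes rose than fell in number 18. Of 27 cartilage and early skeleton genes 8 rose and 2 fell, at a median of 0.47. The summed level of the 30 genes listed overlapped, at 875 to 1187 CPM in number 18 and 940 to 1106 CPM in number 4. Col9a3, a chain of cartilage collagen, was at 19.5, 15.2, 20.8 and 12.2 CPM against 4.21, 4.58, 3.92 and 4.0 CPM (1.99 ± 0.18, adjusted p = 0.00184). Col9a2, another chain of the same collagen, was at 27.3, 16.9, 31.4 and 19.2 CPM against 11.1, 7.59, 9.64 and 6.75 CPM (1.43 ± 0.20). Neither gene overlapped between the sets. Matn4, a matrilin, rose by 2.65. The genes that fell were Matn3, another matrilin, by 1.54, and Hapln1, a link protein of hyaluronan matrix that the early heart also makes, by 0.90.

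Of 35 collagens and matrix genes 12 rose and 1 fell, at a median of 0.40. Their summed level overlapped, at 5101 to 7146 CPM in number 18 and 4819 to 6542 CPM in number 4. Eln, elastin, was at 17.1, 10.9, 19.04 and 13.98 CPM against 5.19, 5.04, 6.70 and 3.33 CPM (1.62 ± 0.20, adjusted p = 0.00556). Col6a2, a microfibril collagen chain, was at 64.2, 54.8, 72.7 and 46.6 CPM against 29.4, 30.1, 27.2 and 17.02 CPM (1.22 ± 0.13, adjusted p = 0.00474). Fbln5, an elastic fibre protein, and the proteoglycans Bgn and Dcn rose by 0.96, 0.78 and 0.94 without overlap. Col18a1, a basement membrane collagen, fell by 0.53. Without 18-4 KO the count was 14 higher and 4 lower and the median 0.22, and 0.213 without 4-5 KO.

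Somite derivatives differed by gene. Of 28 somite and presomitic mesoderm genes 2 rose and 1 fell, at a median of -0.39, 3 fell with the length offset, and 4 rose without 18-5 WT. Pax1, a factor of the sclerotome and pharyngeal pouches, was at 30.3, 22.3, 27.9 and 18.5 CPM against 9.45, 10.3, 14.96 and 15.9 CPM (0.99 ± 0.22, adjusted p = 0.0342). Meox2, a later mesodermal factor, rose by 0.75. Cyp26a1, the retinoic acid degrading enzyme of the tail bud, fell by 0.80 with overlapping sets. Of 29 skeletal muscle genes 3 rose and 2 fell, 8 rose without 18-4 KO and 7 without 4-5 KO, and 4 fell with the length offset. Myod1, a master factor of muscle formation, was at 5.12, 7.68, 5.84 and 1.77 CPM against 0.675, 1.08, 1.22 and 0.567 CPM (2.42 ± 0.30, adjusted p = 0.00613). Mymx, a fusion peptide of myoblasts, and Tnnt1, slow troponin T, rose by 1.69 and 1.23. Unc45b, a myosin chaperone, and Actn2, a sarcomere protein, fell by 1.28 and 0.90, and both are also made by the heart.

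Heart genes were lower. Of 31 heart genes 8 fell and 3 rose, at a median of -0.27, and 13 fell with the length offset. Without 18-4 KO the median was -0.03, with 9 lower and 4 higher, and without 18-5 WT 5 were lower and 1 higher. Myh6, atrial myosin heavy chain, was at 41.3, 13.5, 26.3 and 32.2 CPM against 155, 134, 63.0 and 158 CPM (-2.09 ± 0.35, adjusted p = 0.0149). Myh7, the slow and ventricular myosin heavy chain, was at 44.9, 28.7, 37.4 and 44.4 CPM against 148, 130, 64.6 and 133 CPM (-1.56 ± 0.22, adjusted p = 0.00981). Tbx20, a cardiac transcription factor, was at 7.67, 3.97, 4.63 and 10.7 CPM against 32.9, 23.0, 17.7 and 22.2 CPM. It fell by 1.88 (adjusted p = 0.0117). The sets did not overlap for these genes, and for both myosins 4-4 HET was the lowest of number 4. Mybpc3, cardiac myosin binding protein, fell by 1.16. Actc1, cardiac actin, had a difference of -0.48 and did not pass (adjusted p = 0.197). Sln, sarcolipin of the atria, Irx4, a ventricular factor, and Cited1, a coactivator, rose by 2.17, 0.67 and 0.71. Over the whole list the summed level was 894 to 1468 CPM in number 18 and 1057 to 1834 CPM in number 4, which overlapped. In such bulk samples fewer cells of a type and less RNA per cell cannot be told apart.

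In vessels, 1 of 30 endothelial genes rose and 5 fell, at a median of -0.17. Kdr, the main VEGF receptor, was at 50.03, 30.5, 44.5 and 50.6 CPM against 76.7, 79.7, 80.1 and 75.9 CPM (-0.84 ± 0.17, adjusted p = 0.0247). Flt1 and Flt4, the other VEGF receptors, fell by 0.95 and 0.96, and the junction protein Cdh5 and the lymphatic factor Prox1 by 0.64 and 0.68. Kdr, Flt1 and Flt4 did not overlap between sets. Lyve1, a receptor of lymphatic endothelium and of embryonic macrophages, rose by 1.65. Of 18 smooth muscle and pericyte genes 3 rose, namely Kcnj8, a pericyte channel subunit, at 4.91, 5.72, 5.27 and 4.99 CPM against 1.10, 1.25, 1.93 and 0.50 CPM (2.25 ± 0.30, adjusted p = 0.00761), Actg2, enteric smooth muscle actin, by 1.38, and Rgs5, a pericyte marker, by 0.53.

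Few patterning genes of the body axis passed the test, and a difference between groups of Hox genes was not tested. Of all genes tested 5.09% rose and 3.45% fell. Of the 12 Hox genes of groups 1 to 4, 2 fell, namely Hoxb1, a hindbrain gene, by 1.66, and Hoxd4 by 0.69, at a median of -0.28. Of 11 genes of groups 5 to 8, 1 rose, Hoxc5 by 0.71, and of 7 genes of groups 9 and 10, 0 passed in edgeR. Without either knockout 3 and 2 rose. Across the alternative fits the median of groups 5 to 8 ran from -0.0277 to 0.371, and that of groups 9 and 10 from -0.338 to 0.0512. Of 9 genes of groups 11 to 13, which pattern the distal limb and tail, 1 rose, at a median of 0.67 (0.13 in the wild types alone). This gene, Hoxd12, was at 11.2, 10.5, 13.5 and 13.3 CPM against 7.81, 4.86, 8.91 and 8.90 CPM (0.68 ± 0.17, adjusted p = 0.0485), and missed the threshold without 18-5 WT (adjusted p = 0.0693). Hoxd13 had a larger difference of 0.82 and did not pass (adjusted p = 0.0874), with 13.1 CPM in 18-5 WT against 28.9, 37.3 and 30.7 CPM in the other number 18 embryos. Of 28 limb bud genes 1 rose (2 with the length offset, 3 without either knockout) and 2 fell. Tbx15, a factor of limb and craniofacial mesenchyme, was at 43.8, 39.4, 43.7 and 31.9 CPM against 20.1, 25.3, 25.3 and 10.4 CPM (1.03 ± 0.17). Sp8, a factor of the limb ridge and brain, fell by 1.07, and Shh is given above. The Hedgehog targets Ptch1 and Hhip and the Fgf target Dusp6 fell by 0.83, 0.95 and 0.60, and Nkd2, a Wnt feedback gene, rose by 0.55, the 4 genes of 26 in the signalling list that passed. Of the 26, 5 fell with the length offset and 4 rose without either knockout.

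Macrophage genes had the largest share called higher of the 50 lists examined. Of 27 macrophage and microglia genes 19 rose (70.4%, against 5.09% of all genes), 0 fell and 8 did not pass, at a median of 1.34. For 17 of the 27 all number 18 embryos lay above all number 4 embryos, against 10.2% of all genes. C1qa, a chain of complement C1q that macrophages secrete, was at 10.7, 14.5, 12.04 and 4.80 CPM against 2.52, 2.46, 2.70 and 1.07 CPM (2.25 ± 0.17, adjusted p = 0.000984). C1qb was at 19.96, 30, 21.3 and 9.99 CPM against 7.48, 6.86, 7.29 and 4.45 CPM, and C1qc at 9.17, 12.97, 11.0 and 5.59 CPM against 3.36, 2.997, 3.49 and 1.88 CPM. The knockout was lowest of its set for all 3 chains in both numbers, yet 18-4 KO was above each number 4 embryo. Ctss, cathepsin S, rose by 1.90 and Coro1a, an actin regulator of white blood cells, by 0.73. The summed level of the list was 245 to 379 CPM in number 18 and 132 to 199 CPM in number 4. With the length offset 18 rose, and without 18-5 WT 14.

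Platelet and interferon genes were also higher. Of 16 megakaryocyte and platelet genes 3 rose (5 with the length offset), at a median of 0.47. Ppbp, a platelet chemokine, was at 13.2, 23.1, 13.5 and 18.9 CPM against 4.53, 7.36, 5.47 and 7.13 CPM (1.48 ± 0.23, adjusted p = 0.0121). Pf4, another platelet chemokine, rose by 1.15 and Gp1bb, a subunit of the von Willebrand factor receptor, by 1.20. Of 21 interferon response genes 6 rose and 0 fell, at a median of 1.02. Ifi27 was at 1.98, 3.48, 2.29 and 2.59 CPM against 0.302, 0.430, 0.413 and 0.167 CPM (3.01 ± 0.34, adjusted p = 0.00505). Bst2, Psmb8, Oasl2, Parp14 and B2m, genes of antiviral defence and antigen presentation, rose by 1.57, 1.97, 1.52, 1.27 and 0.63, and B2m missed the threshold with the length offset (adjusted p = 0.184). Most of these genes stood under 10 CPM, and without 18-5 WT 4 of the 21 rose at a median of 0.66.

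Of 41 lysosome genes 5 rose and 0 fell, at a median of 0.21, while 8 rose with the length offset and 3 fell without either knockout. Hexa, a subunit of beta-hexosaminidase, was at 47.2, 58.0, 48.2 and 69.1 CPM against 36.5, 29.5, 32.2 and 32.9 CPM (0.75 ± 0.14, adjusted p = 0.0214). Cd63, a membrane protein of late endosomes, Grn, progranulin, and the cathepsins Ctsz and Ctsb rose by 0.79, 0.56, 0.64 and 0.72. The sets did not overlap for any of the 5. Within number 18, Hexa, Ctsz and Ctsb were highest in 18-4 KO, at 69.1, 96.7 and 356 CPM. Cd63 and Grn were highest in 18-5 WT, at 131 and 92.6 CPM. The macrophage genes C1qa, C1qb and C1qc were lowest of number 18 in 18-4 KO and highest in 18-5 WT. These lysosomal genes are abundant in macrophages, whose markers rose as well, and the part of macrophages in them was not tested.

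Genes of plasma proteins, which fetal liver and yolk sac endoderm both make, differed most in size and most unevenly between embryos. Apoa4, an apolipoprotein, had 28, 26, 2037 and 18041 counts in number 18 embryos and 0, 0, 0 and 6 counts in number 4 embryos, which is 0.411, 0.455, 30.1 and 278 CPM against at most 0.1 CPM. Apoa1, the main apolipoprotein of high-density lipoprotein, was at 7.76, 8.61, 33.6 and 168 CPM against 0.746, 0.922, 3.51 and 2.03 CPM (4.03 ± 0.54, adjusted p = 0.00778). Ttr, transthyretin, was at 49.8, 76.2, 82.0 and 214 CPM against 9.5, 13.2, 16.6 and 2.53 CPM (3.20 ± 0.65, adjusted p = 0.0273). For all 3 genes 18-4 KO was the highest embryo, 18-3 HET the next, and the number 18 wild types were still above each number 4 embryo. Fga, a fibrinogen chain, rose with overlapping sets, at 2.19, 1.33, 11.5 and 117 CPM against 0.178, 0.246, 2.54 and 0.433 CPM (adjusted p = 0.0404). Cfi, a complement regulator, Kng1, a kininogen, and Igfbp1, a binding protein of insulin-like growth factors, also rose, each at 27.4 to 34.0 CPM in 18-4 KO and under 7 CPM elsewhere.

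Other plasma protein genes followed another order. Alb, albumin, was at 25.3, 21.04, 28.0 and 10.4 CPM in number 18 embryos and at 1.10, 3.50, 17.9 and 1.58 CPM in number 4 embryos (2.51 ± 0.52, adjusted p = 0.0287), so 18-4 KO was the lowest of its set and 4-4 HET overlapped number 18. Vtn, vitronectin, was at 33.3, 38.4, 37.3 and 26.4 CPM against 21.9, 19, 29.2 and 14.3 CPM (0.71 ± 0.14). Afp, alpha-fetoprotein, had a difference of 2.77 and did not pass (adjusted p = 0.0516), at 74.8, 66.5, 520 and 3347 CPM against 13.4, 26.9, 114 and 43.2 CPM. It passed without 18-4 KO (adjusted p = 0.00766). Trf, transferrin, likewise did not pass with 8 embryos (adjusted p = 0.0545) and passed without 18-4 KO (adjusted p = 0.00426). Of 27 hepatoblast and plasma protein genes 12 rose and 0 fell, at a median of 2.12. Without 18-4 KO 17 rose at a median of 1.40, without 4-5 KO 17 at 1.38, in the wild types alone 16 at a median of 1.61, and 7 rose with the length offset or without 18-5 WT.

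Markers of yolk sac endoderm moved with this group. The summed level of the 20 yolk sac and visceral endoderm genes, of which 0 were at 0 in all 8 embryos, was 822 CPM in 18-4 KO, 213 to 268 CPM in the other number 18 embryos and 183 to 261 CPM in number 4 embryos. Cubn, the endocytic receptor cubilin of yolk sac and kidney, was at 1.14, 0.875, 8.15 and 178 CPM against 1.56, 1.37, 2.23 and 2.08 CPM (difference 1.60, adjusted p = 0.387), and in the wild types alone its difference was -0.53. Spp2, a secreted phosphoprotein, was at 0.587, 0.525, 8.37 and 69.6 CPM against 0.178, 0.184, 0.413 and 0.267 CPM (4.48 ± 1.04, adjusted p = 0.0377). Both therefore had the order of Apoa4, with 18-4 KO first and 18-3 HET next. Of 16 measured genes of the list 4 rose, and besides Spp2 these were Pla2g12b, a secreted phospholipase-like protein, Ctsh, cathepsin H, and Dab2, an endocytic adaptor, by 2.48, 1.65 and 0.71. Dab2 was even across number 18, at 132, 134, 128 and 149 CPM against 76.7, 94.1, 91.0 and 72.0 CPM. The median of the list was 1.34, and 0.58 without either knockout and 0.28 in the wild types alone. The part of yolk sac RNA in the plasma protein genes was not tested. Of 12 tested decidua genes 3 rose, namely Igfbp1, the interleukin receptor Il11ra1 by 1.15 and Dcn (1 with the length offset or without 18-5 WT), and the summed level of the 13 genes listed was 261 to 298 CPM against 166 to 218 CPM. Of 6 tested placenta genes Hsd3b6, a steroid enzyme, rose by 2.16 and was at 132 CPM in 18-5 WT. The 20 placenta genes, of which 5 were at 0 in all 8 embryos, summed to 42.4 to 139 CPM against 14.1 to 38.1 CPM. The part of maternal or placental RNA was not tested.

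**Figure D4:**
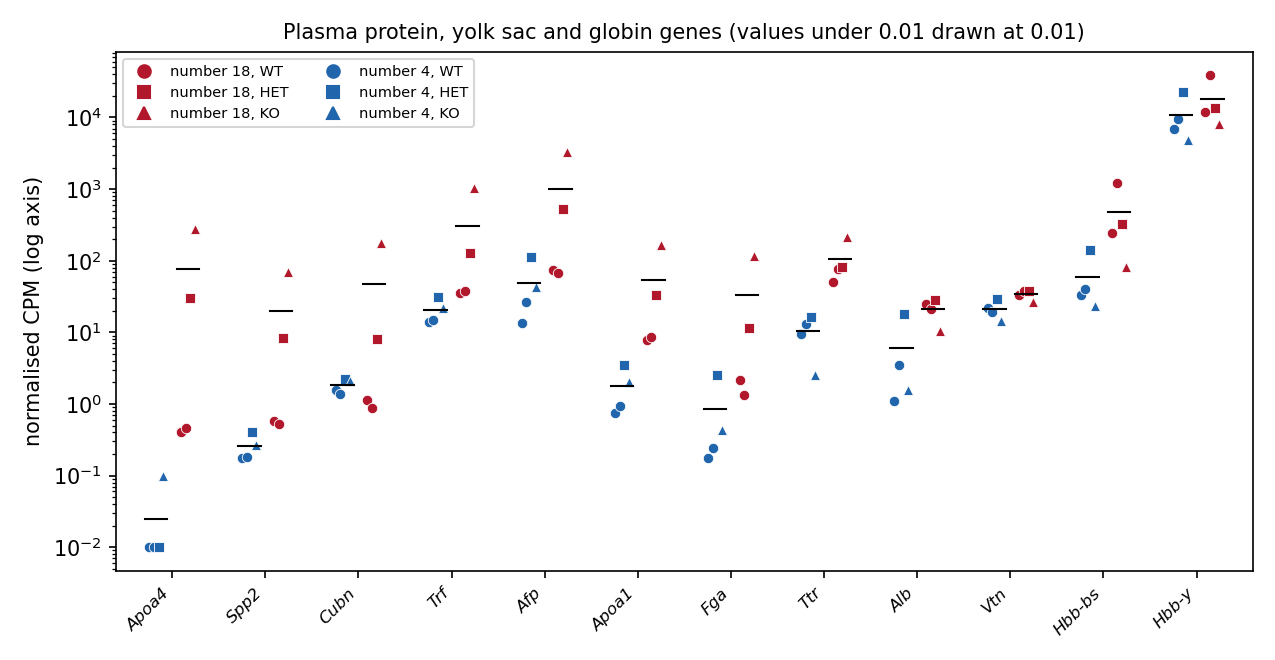
Normalised level (CPM, log axis, values under 0.01 drawn at 0.01) of plasma protein, yolk sac and globin genes in each embryo, with a bar at the mean of each set of 4. Apoa4, Spp2 and Cubn are highest in 18-4 KO (278, 69.6 and 178 CPM) and next in 18-3 HET, while Alb and Hbb-bs are lowest there among number 18 embryos.

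Red cell genes separated the embryos less cleanly. The adult globin genes Hbb-bs and Hbb-bt, beta chains of definitive red cells, rose by 2.93 and 2.76 (adjusted p = 0.0450 and 0.0460). Hbb-bs was at 247, 1230, 324 and 82.9 CPM against 32.8, 40.4, 143 and 23.5 CPM, with 18-5 WT highest, and 4-4 HET above 18-4 KO. These near-identical genes share reads, as do the adult alpha chains, of which Hba-a1 had a difference of 1.25 (adjusted p = 0.159). With the length offset 0 of the 4 adult globins rose, and in the wild types alone all 4 did. Of 30 embryonic and primitive erythroid genes 0 rose and 0 fell by edgeR, at a median of 0.34, with 7 higher in the wild types alone and a median of -0.06 without 18-5 WT. Hbb-y, an embryonic beta chain, had a difference of 0.86 and Hba-x, an embryonic alpha chain, of 0.58, and neither passed (adjusted p = 0.272 and 0.438). All globins together took 2.95%, 8.64%, 3.28% and 1.93% of counts in number 18 and 1.84%, 2.09%, 5.04% and 1.30% in number 4 (exact two-sided permutation p = 0.486, 0.607 adjusted).

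Genes of early kidney and gonad were mixed. Of 26 such genes 4 rose and 2 fell, at a median of -0.16 with 7 differences above 0 and 19 below. Osr1, a factor of intermediate mesoderm and its mesenchyme, was at 27.9, 32.8, 28.4 and 16.9 CPM against 9.11, 10.5, 9.16 and 8.42 CPM (1.48 ± 0.16, adjusted p = 0.00433). Wnt4, a signal for kidney tubule formation, was at 35.8, 35.3, 40.8 and 36.4 CPM against 22.0, 18.9, 22.3 and 21.3 CPM (0.81 ± 0.11, adjusted p = 0.00903). Neither overlapped between the sets. Six2, a nephron progenitor factor, and Cited1 rose by 0.99 and 0.71, and Sall1, a factor of kidney and limb, fell by 0.87, as did Eya1. Of 18 pigment cell genes 1 rose (3 with the length offset), Bace2, by 0.94 with overlapping sets. That share, 5.56%, was near the 5.09% of all genes. Of 18 retinoic acid genes 4 rose and 2 fell, among them the receptor Rxrg by 1.31 and the degrading enzyme Cyp26c1, which fell by 1.65.

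Several amino acid stress genes were lower in number 18, with the knockouts far apart. Of glycolysis and hypoxia genes 5.88% fell and of cholesterol synthesis genes 4.35%, near the 3.45% of all genes tested. Of 34 genes of the ATF4 response, which cells turn on when amino acids are short, 4 fell and 0 rose, at a median of -0.27, which was -0.10 without either knockout, where 2 also rose. The count that fell was 7 with the length offset and 6 without 18-5 WT. Slc7a1, a cationic amino acid transporter, was at 25.6, 25.3, 27.5 and 48.7 CPM against 57.4, 56.6, 52.0 and 154 CPM (-1.23 ± 0.14, adjusted p = 0.00494). Mthfd2, a mitochondrial folate enzyme, was at 46.9, 46.6, 42.8 and 65.1 CPM against 66.2, 64.0, 74.7 and 176 CPM (-0.80 ± 0.17, adjusted p = 0.0290). Stc2, a secreted glycoprotein, fell by 1.29 and Slc1a5, a glutamine transporter, by 0.71. The knockout was the highest of its set in both numbers for these 4 genes. The related transporter Slc7a3 fell by 2.22 with overlapping sets, at 0.352, 0.875, 0.784 and 5.48 CPM against 2.40, 1.89, 3.404 and 42.2 CPM. The summed level of the ATF4 list was 1974 to 2395 CPM in number 18 and 2146 to 4671 CPM in number 4, the latter in 4-5 KO. Of 34 glycolysis and hypoxia genes 2 fell (5 with the length offset or without either knockout), namely Hk2, hexokinase, by 0.94 and Slc2a1, a glucose transporter, by 0.47. Ldha did not pass (-0.34, adjusted p = 0.292). Of 23 cholesterol synthesis genes 1 fell, Hsd17b7 by 0.73, while 3 fell with the length offset and 11 without either knockout.

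Few cell cycle and housekeeping genes passed the test. Of 42 cell cycle and mitosis genes 1 rose and 0 fell, at a median of -0.25 with 10 differences above 0 and 32 below. Their summed level did not overlap, at 8726 to 10033 CPM in number 18 and 10442 to 11248 CPM in number 4. All number 18 embryos lay below all number 4 embryos for 9 of the 42 and above for 1, against 10.5% and 10.2% of all genes. The gene that rose, Cdkn1c, an inhibitor of the cycle, was at 405, 501, 448 and 236 CPM against 217, 179, 197 and 196 CPM (0.96 ± 0.19, adjusted p = 0.0233). Bub1b, a checkpoint kinase, had a difference of -0.34 and did not pass (adjusted p = 0.0710). Of the 42, 9 fell with the length offset or without either knockout, and 5 without 18-5 WT. Cytosolic ribosomal protein genes, 47 in all and short, had a median of 0.25 with 0 called by edgeR. With the length offset the median was 0.02 and 3 fell, and 5 rose without 18-4 KO. Nuclear genes of oxidative phosphorylation had a median of 0.32, again with 0 of 32 called, 0.07 with the offset and 7 higher without 18-4 KO. Replication-dependent histones, whose mRNAs lack a long poly(A) tail, had 3 of 20 higher at a median of 1.02, with all 20 differences above 0, namely H2bc7, H2bc4 and H1f2 by 2.58, 1.29 and 1.28. These gene copies resemble each other, so reads may be split among them, and 9 rose without either knockout.

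Of 28 imprinted genes 3 rose, Cdkn1c among them, and 1 fell, at a median of -0.35, and 3 fell with the length offset and 10 without either knockout.

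Of 18 genes of the growth hormone axis and thyroid signalling 4 rose, 2 without 18-5 WT, and 3 fell without either knockout. Besides Igfbp1 these were Ghr, the growth hormone receptor, Thra, a thyroid hormone receptor, and Igfbp2, by 0.61, 0.68 and 0.68. Thra was at 88.8, 74.8, 86.6 and 58.5 CPM against 48.1, 52.5, 57.2 and 35.3 CPM. Igfbp2 overlapped between sets by 202 CPM in 18-4 KO and 205 CPM in 4-1 WT. Of 27 immediate early and heat shock genes 3 rose, namely Klf4, Hspb1 and Ier5, by 1.10, 1.05 and 0.77, without overlap, and 5 rose with the length offset and 9 without either knockout.

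**Figure D5:**
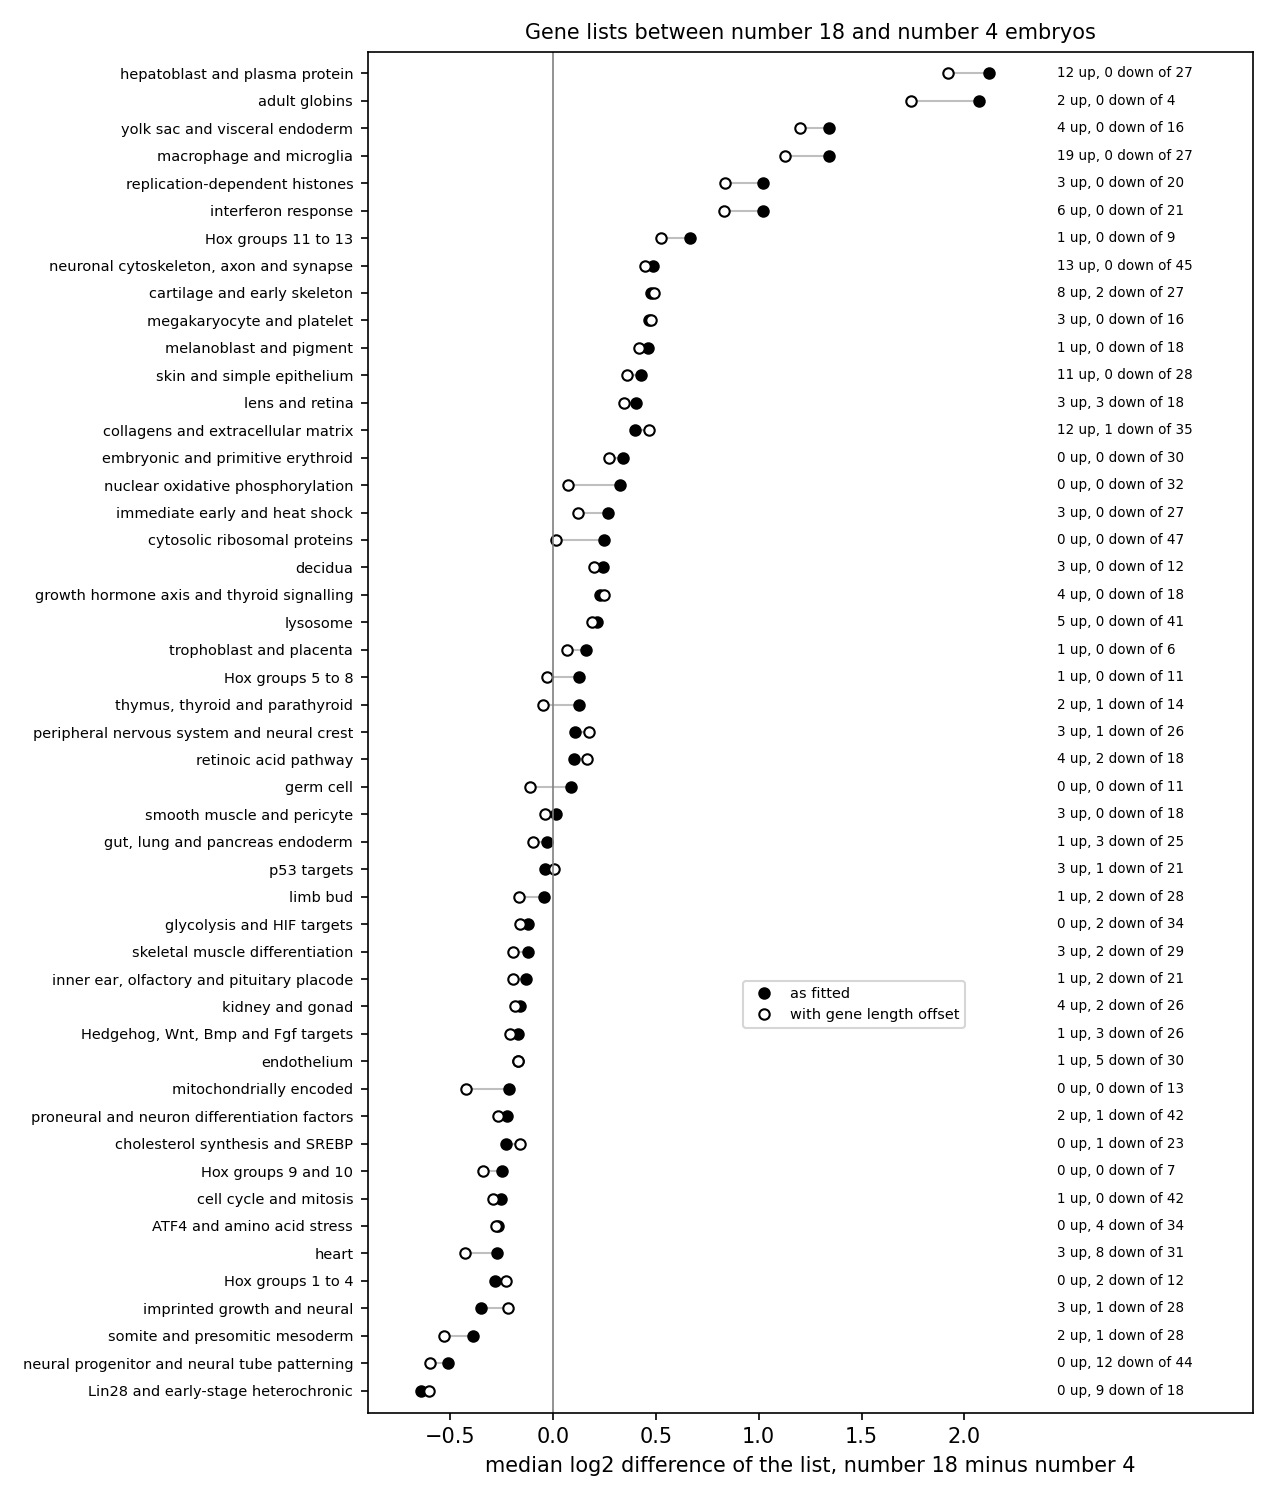
The median log2 difference (number 18 minus number 4) of each gene list other than the sex-linked genes, as fitted (filled) and with the gene length offset (open), with the counts of genes that rose and fell at the right. Plasma protein, yolk sac and macrophage lists lie far above 0, and the Lin28 list, at -0.64, lies lowest.

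The 741 genes that changed at least 2-fold were used to place each embryo between the mean of number 4, set to 0, and the mean of number 18, set to 1, by the median over genes. Number 18 embryos lay at 1.0, 1.20, 1.09 and 0.685 and number 4 embryos at 0.026, 0.0217, 0.206 and -0.223, a placement that follows from the choice of genes. The 4 embryos not used in that choice, of which none was wild type, all lay closer to number 4 than to number 18. The heterozygous embryo of number 4.1b was at 0.0222, those of number 14 at 0.0955 (heterozygous) and 0.062 (knockout), and the knockout of number 15 at -0.353. Lin28a, for one, was at 89.1, 48.9, 51.7 and 405 CPM in these embryos, above all 4 number 18 embryos. Their Krt14 levels, 3.16, 0.505, 6.22 and 3.02 CPM, were all below the lowest number 18 embryo. Other genes did not follow this placement. Fbln5 was at 11.5, 31.0, 30.7 and 8.37 CPM, and both number 14 embryos lay above all 4 number 18 embryos. Dcn was at 6.83, 57.6, 59.9 and 28.2 CPM, within or above the number 18 range in both number 14 embryos. The knockout of number 15 lay beyond each number 4 embryo in the placement.

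Leading genes kept their call when each embryo was left out and under each other scaling, filter, covariate or tool tried, apart from a fit that blocked on the embryo number in the titles. Among those named, 40 of 151 called genes did so, Lin28a, Lin28b, Igdcc3, Prtg, Krt5, Krt14, Cxcl14, Col9a3, Myh7, C1qa, Osr1 and Oc90 among them.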

How the data were processed

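RNA was sequenced from whole embryos with a strand-marking mRNA kit, per the labels' protocols. Gene values are the authors' deposited estimated counts (expected counts, unscaled), made with featureCounts 2.0.6 on the RefSeq annotation of GRCm39, per the file headers. Reads with several places or genes were counted as fractions and strand was not used, so near-identical and antisense genes share reads. The aligner's role is not given in the sources used here.

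Counts were rounded to whole numbers, genes filtered with filterByExpr (19983 of 41079 kept) and libraries were scaled with TMM. The 8 embryos were then fitted in edgeR 4.0.16 (R 4.3.3) with robust dispersion, and title number was tested two-sided by quasi-likelihood, with Benjamini-Hochberg adjustment and a threshold of 0.05. Library totals of 54633257 to 66715587 counts limit counting error to low genes. Errors of log2 differences are standard errors from the fit. Alternatives were DESeq2 1.42.0, limma voom 3.58.1 with sample weights, other scalings, filters and covariates, and each embryo left out. The gene length offset, a lowess curve (span 0.3) of centred log2 CPM (prior count 2) on log2 length, was added after the relation with length was seen. Each embryo is a separate animal, and p-values rest on the spread between embryos within a title number, taken as replicates. If that number marks a litter or a collection, each side holds a single one, and the p-values do not cover the spread between them. Litter, stage and handling cannot be told apart in the comparison of the numbers. The tests were tested on simulated data.

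The rule for named genes took, per direction, the 15 called genes with the largest differences among those of at least 5 CPM and the 5 with the smallest p, and per list up to 4 by p and the 2 most abundant. Alb, Cubn, Sln, Irx4, Actn2, Hapln1, Col18a1, Cdh5, Prox1, Six2, Parp14 and Ctsb fall outside it and were chosen after their values were seen. The groups and the 50 gene lists were chosen with earlier results of these data known. The remaining 4 embryos, of numbers 14, 15 and 4.1b, entered no comparison apart from 2 alternatives and the placement of embryos. Values of some genes are not reported here, and counts over the named genes leave them out.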

Additional observations from a re-analysis of the deposited data

Results flagged for a closer look

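For each named gene and each of 5 library measures, in each set of 4 embryos, the highest or lowest embryo was set against the other 3 by its gap to the nearest of them relative to the whole range, with Dixon's 95% critical value as the limit. Of 338 such sets, 47 had an embryo past that limit. Each set mixes genotypes, many genes were chosen for their differences, and a set with 3 values of 0 passes by construction. The number past the limit is therefore a description, with no rate by chance to set it against. The counts were 20 for 18-4 KO, 15 for 4-5 KO, 5 for 18-5 WT, 4 for 4-4 HET and 1 each for 18-3 HET, 4-1 WT and 4-3 WT.

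In 18-4 KO the embryo apart was highest for genes of plasma protein and yolk sac, namely Apoa4 (278 CPM), Apoa1 (168), Afp (3347), Trf (1034), Fga (117), Cubn (178), Spp2 (69.6), Ctsh (36.0), Pla2g12b (5.005), Igfbp1 (27.4) and Cfi (34.0). It was also highest of its set for Lin28a (27.0 CPM) and Prtg (23.2), for Slc7a1 (48.7), Stc2 (6.91), Slc7a3 (5.48) and Slc2a1 (226), and for Col18a1 (361). It was lowest for Tubb3 (242 CPM against 405 to 437 in the other number 18 embryos) and Islr (30.9 against 63.7 to 66.4).

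In 4-5 KO, early embryo and amino acid stress genes stood highest, with Lin28a at 261 CPM, Prtg at 164, Slc7a1 at 154, Mthfd2 at 176, Stc2 at 23.6 and Slc7a3 at 42.2. So did Wfikkn1 (28.1 CPM), Trh (19.97), Sp8 (19.8), Dusp6 (165) and Flt1 (30.9), and Apoa4 at 0.100 CPM beside 0 in the other 3. Fbln5 (10.6 CPM), Mymx (0.167) and C1qa (1.07) were lowest there.

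In 18-5 WT, Map1b (172 CPM) and Cdh5 (34.3) were lowest and Pf4 (41.0), Cd63 (131) and Hsd3b6 (132) highest. In 4-4 HET, Fga (2.54 CPM), Alb (17.9), Hbb-bs (143) and Hba-a1 (3094) were highest. Perp was highest in 18-3 HET (42.9 CPM) and in 4-1 WT (31.2), and Neurod6 was at 0.0307 CPM in 4-3 WT beside 0 in the other 3. No explanation of these values was tested.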

How the results depend on the processing

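The counts of 1018 genes higher and 689 lower became 2102 and 1777 with DESeq2, 3827 and 3753 with limma voom, 223 and 46 with an Xist term, 603 and 336 with all 12 embryos in the fit, and 1967 and 1648 with the number 4.1b embryo counted with number 4. The count lower was 307 with library totals only, 1116 without a filter, 1312 in the wild types alone and 1203 with the length offset. Leaving out 1 embryo gave 150 to 2125 higher and 35 to 1946 lower. DESeq2 called 8 genes for the number by genotype term, which pooled heterozygous and knockout embryos, where edgeR called 0. The embryo number in the titles as a replicate block left 6 genes higher and 0 lower. That number is not known to pair embryos: deviations of the pairs 3, 4 and 5 correlated at 0.0278, -0.149 and 0.081, and of the number 18 embryos 18-5 WT correlated best with the number 4 embryo of its own number, while 18-3 HET and 18-4 KO did not. Of single genes, Cubn turned to -0.53 in the wild types alone and Hba-x to -0.157 with the length offset and without 18-5 WT. The cause of these changes was not tested. Of the other values for the 164 named genes under alternatives, 2792 kept their direction and side of the threshold, 920 lost the call, 150 of these under the block, and 41 gained one. At these depths, genes under 1 CPM rest on few counts per embryo.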
